A study of Mus musculus with 16 samples.

Results

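Interferon-stimulated genes were read in mouse bone marrow on 1-colour Agilent arrays. The set holds 40 genes, chosen by name from the genes known to be induced by interferons, out of 34650 gene names on the array. They had 56 probes among 55681, and 52 of these passed the filter on dim signal. The filter kept a probe whose signal the scanner software called well above background in 6 or more of the 8 mice of a group. All 40 genes kept a probe, as did 23061 gene names in all. The 4 probes left out were second probes of Ifih1, Iigp1, Irf1 and Psmb9. They were above background in 0 to 5 mice of a group.

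Interferons are secreted by cells that sense viral or self nucleic acids. Type I interferons act through Ifnar1 and Ifnar2, the kinases Jak1 and Tyk2 and a complex called ISGF3, which holds Stat2 and Irf9 and binds interferon-stimulated response elements in promoters. Interferon gamma acts at gamma-activated sites. In bone marrow, interferon signalling is known for its effects on blood stem cells, monocytes and macrophages, and a low tonic level keeps many of these genes on without infection.

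The samples were 16 mice, 8 per group and 1 array per mouse. KO chimeras were C57BL/6J mice given a lethal 950 rad of irradiation and then whole marrow from Adrb1tm1BkkAdrb2tm1Bkk/J donors, which lack the beta-1 and beta-2 adrenergic receptors, in 1 retro-orbital injection at a stated ratio of 1:4 of donor strain to C57BL/6J. Controls were C57BL/6J mice irradiated with the same 950 rad, and recovery took 2 to 3 months. The labels give no ages and do not say how much of the marrow came from the graft. Their treatment text, injection included, stands on every sample, yet the labels name no donor strain for the controls, so whether controls were grafted is unclear. The recipients' own tissues carried both receptors in both groups. Receptor loss, the genetic background of the donors and, if controls had no graft, grafting itself cannot be told apart in this design.

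Array brightness and marrow identity were checked first. The 75th percentile of processed signal ran from 231 to 558 in controls and from 127 to 545 in KO chimeras. Probes called well above background numbered 29292 to 38743 in controls and 27755 to 37087 in KO chimeras. The marrow markers Elane, Mpo, Alas2 and Pf4 were well above background on all 16 arrays. An Adrb1 probe gave signal on all arrays, but where it lies relative to the deletion is not known here, so it does not check the genotype. One KO chimera, number 4, stood apart for the interferon-stimulated genes, and results are also given without it.

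Marrow of the KO chimeras held lower levels of 13 of the 40 interferon-stimulated genes and a higher level of 1, Irf1, with 26 not passing the test. The genes that fell were Ifit3, Isg15, Usp18, Cmpk2, Ddx58, Ifih1, Dhx58, Zbp1, Irgm1, Ifi47, Parp9, Xaf1 and Rtp4. Each gene is counted by its brightest kept probe and called at a limma adjusted p under 0.05, with Benjamini-Hochberg adjustment over all 32689 probes tested. Over all 23061 genes read the same way 12.1% were lower and 10.3% were higher. The median difference (KO chimera minus control, log2) was -0.24 over the 40 genes and -0.02 over all genes, and 29 of the 40 differences were negative. On the brightest probe of 6 genes, Ifit3, Cmpk2, Usp18, Ddx58, Parp9 and Xaf1, every KO chimera lay below every control. On that of 0 genes every KO chimera lay above. Over all genes those shares were 3.27% and 2.87%, or 6.14% in either direction. Parp9 and Xaf1 also had another probe that passed as higher, and on that of Xaf1 every KO chimera lay above every control. Of the 52 member probes 15 were lower and 3 higher, where 12.2% and 11.4% of all probes were. The groups did not overlap on 8 member probes, against 6.34% of all probes: 7 had every KO chimera below every control (3.28%) and 1 every KO chimera above (3.06%). Because whole marrow was measured, fewer cells of a type and less RNA per cell cannot be told apart. Whether the donors' sequence differs from that of C57BL/6J under a probe, which can change its signal, was not tested.

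**Figure D1:**
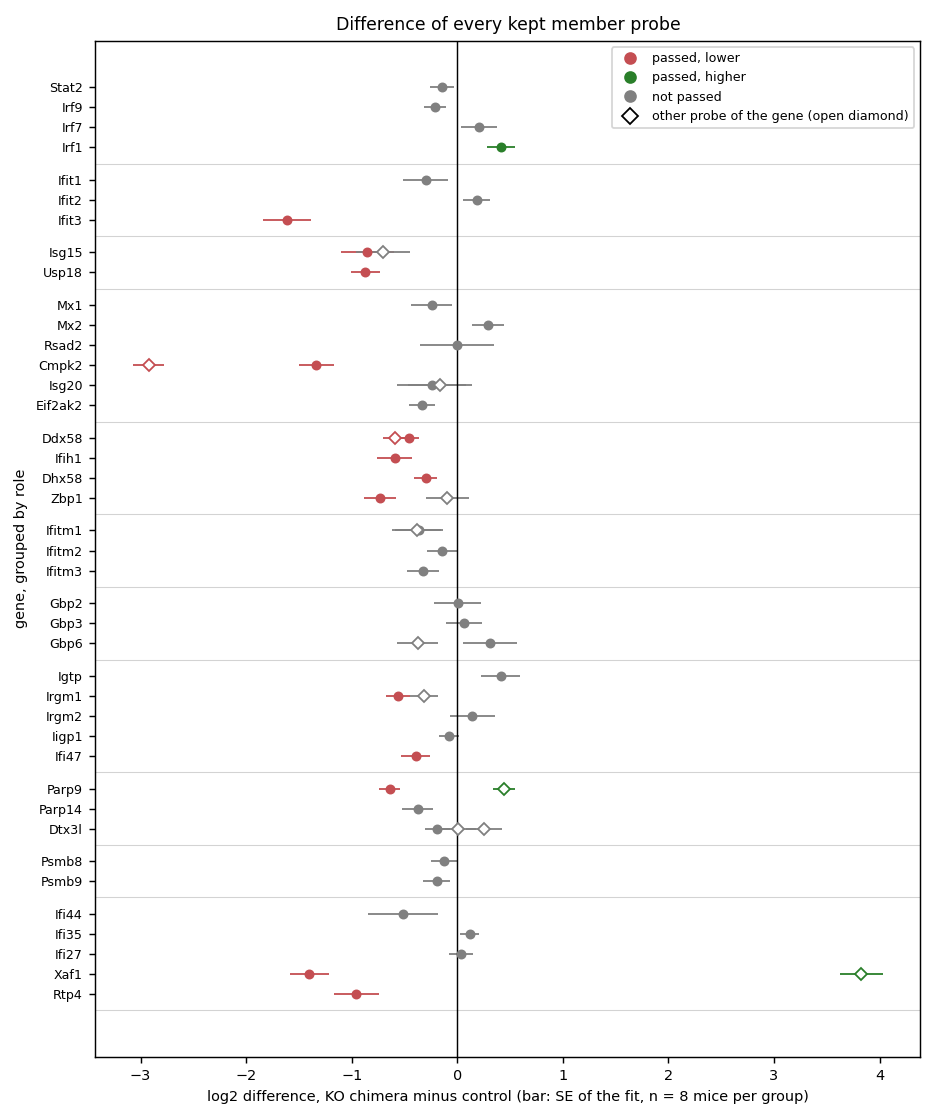
Log2 difference, KO chimera minus control, of each of the 52 kept member probes, with the SE of the fit as a bar (n = 8 mice per group) and genes grouped by role; filled circles are the brightest probe of a gene and open diamonds its other probes. The sensors and the Isg15 and Usp18 pair lie left of 0 on their brightest probes, and Xaf1 and Parp9 have probes that passed on both sides of 0.

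Of the 4 transcription factors among the 40 genes Irf1 was higher and 3 did not pass. Stat2 and Irf9, subunits of ISGF3, differed by -0.14 ± 0.12 (SE) and -0.21 ± 0.10 (log2), and Irf7, which amplifies interferon production, by 0.21 ± 0.17. None of these 3 passed (limma adjusted p = 0.163 to 0.431). Irf9 was below every control in 7 of 8 KO chimeras, with KO chimera 4 above all of them, and it passed as lower with array weights (-0.27, limma adjusted p = 0.0146). Irf1 is a transcription factor induced by interferon gamma and by NF-kB. Its log2 level, the processed signal over the array's 75th percentile, ran from 3.95 to 4.70 in controls (median 4.17) and from 4.16 to 5.06 in KO chimeras (median 4.61). Values were above the control mean in 7 of 8 KO chimeras, and the groups overlapped. The difference was 0.41 ± 0.13 (limma adjusted p = 0.031), and the call was lost on leaving out any of 7 single mice, KO chimeras 1, 4 and 6 and controls 1, 3, 6 and 7 (limma adjusted p from 0.0531 to 0.0619). It was also lost with slide as a block (0.38, limma adjusted p = 0.114) and on each scan day alone (adjusted p = 0.352 and 0.102).

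Promoter letters were searched in RefSeq windows of 300 bases (250 before to 50 after the start, GRCm38.p6), in which 29 of the 40 genes had an entry. The response element was searched as GAAA, any 2 bases and GAAA, and the gamma-activated site as TTC, any 3 bases and GAA, each on both strands; the 2 motifs overlapped in Ifitm3. The first was found in 15 of the 29, or 51.7%, against 3.99% of all genes in the table, and the second in 9, or 31.0%, against 9.55%. Of the fallen genes with an entry 5 of 8 held the response element (Ddx58, Ifih1, Ifit3, Irgm1 and Isg15), as did 10 of the 20 that did not pass. None of the 8 held the gamma-activated site, 8 of the 20 did, and so did Irf1. A match is a run of letters and does not show that a factor binds. The stretch of 160 bases before the Irf1 start is shown because it is the member that rose, with the gamma-activated site in capitals:
Irf1 promoter (chr11:53769854-53770013, plus strand): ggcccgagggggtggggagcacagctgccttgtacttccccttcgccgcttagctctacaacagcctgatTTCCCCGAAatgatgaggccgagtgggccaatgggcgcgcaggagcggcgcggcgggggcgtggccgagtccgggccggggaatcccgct

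The IFIT genes, which encode proteins that bind foreign RNA and block its translation, split. Ifit3 ran from -1.27 to -0.41 in controls (median -0.88, log2 level) and from -3.56 to -1.67 in KO chimeras (median -2.50). All 8 KO chimeras lay below all 8 controls. Ifit3 fell by 1.61 ± 0.23 on the log2 scale, 3.06-fold (limma adjusted p = 6.27e-05), and by 1.05 with normexp background correction and quantile normalization. Its neighbours on chromosome 19 did not pass. Ifit2, whose probe lies 12.9 kb away (mm9), differed by 0.18 ± 0.13, and Ifit1, 60.7 kb away on the other side, by -0.30 ± 0.21 (adjusted p = 0.345 and 0.341). Ifit1 ran from -2.71 to -1.52 in controls and from -3.18 to -1.52 in KO chimeras, and its groups overlapped. Ifit3 has a near-identical neighbour, Ifit3b, and its probe may read both.

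The promoters of Ifit3 and Ifit1 are set side by side because one gene fell and the other did not pass. Each held the response element more than once, shown in capitals (TTTC, 2 bases and TTTC when on the other strand), 156 and 122 bases before the Ifit3 start and 104 and 85 before that of Ifit1. The letters of this element were thus in both windows, and the measured differences of the genes were -1.61 and -0.30:
Ifit3 promoter (chr19:34583369-34583528, plus strand): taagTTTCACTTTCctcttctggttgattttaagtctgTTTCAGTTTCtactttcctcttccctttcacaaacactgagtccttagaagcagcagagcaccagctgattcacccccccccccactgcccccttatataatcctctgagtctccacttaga
Ifit1 promoter (chr19:34640729-34640888, plus strand): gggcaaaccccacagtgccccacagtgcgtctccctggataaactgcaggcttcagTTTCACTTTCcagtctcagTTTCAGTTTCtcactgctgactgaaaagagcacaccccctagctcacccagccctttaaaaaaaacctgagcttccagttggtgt

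Both members of the ISG15 system fell. Isg15 encodes a ubiquitin-like protein that is attached to other proteins after interferon, and Usp18 encodes the protease that removes it and also damps signalling at Ifnar2. Usp18 ran from -0.53 to 0.13 in controls (median -0.31, log2 level) and from -1.69 to -0.76 in KO chimeras (median -0.999). The groups did not overlap. Usp18 fell by 0.87 ± 0.14 on the log2 scale, 1.83-fold (limma adjusted p = 1.93e-04).

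Isg15 varied more from mouse to mouse. Its brightest probe ran from 2.81 to 4.65 in controls (median 3.56) and from 2.36 to 3.58 in KO chimeras (median 2.71). All 8 KO chimeras lay below the control mean, but KO chimera 7, at 3.58, lay above 5 of the 8 controls. This probe fell by 0.85 ± 0.25 on the log2 scale (limma adjusted p = 0.0208), with differences of -0.84 and -0.86 on the 2 scan days, neither of which passed alone (adjusted p = 0.139 and 0.2). The other, 0.116 kb away, ran from -1.13 to 0.71 in controls and from -1.26 to -0.24 in KO chimeras and differed by -0.70 ± 0.26 (adjusted p = 0.0575), which did not pass. The Isg15 promoter is shown because it held the response element at 3 overlapping places, 78, 72 and 66 bases before the start:
Isg15 promoter (chr4:156200819-156200978, minus strand): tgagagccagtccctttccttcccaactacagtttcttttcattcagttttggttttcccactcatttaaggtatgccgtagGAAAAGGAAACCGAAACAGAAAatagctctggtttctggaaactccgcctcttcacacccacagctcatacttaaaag

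Among the antiviral effectors Cmpk2 fell and the other 5 did not pass. Cmpk2, a mitochondrial kinase of nucleoside monophosphates, ran from 1.64 to 2.26 in controls (median 1.93, log2 level) and from 0.05 to 1.43 in KO chimeras (median 0.46) on its brightest probe. Its other probe, 1.18 kb away, ran from 0.86 to 1.21 in controls (median 1.02) and from -2.31 to -0.95 in KO chimeras (median -2.03). The groups did not overlap on either probe. The differences were -1.33 ± 0.17 and -2.92 ± 0.15, or 2.52-fold and 7.59-fold lower (limma adjusted p = 1.7e-05 and 3.08e-10). The direction was the same and the size was not. With normexp background correction and quantile normalization they were -1.22 and -2.27.

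Rsad2, which encodes the antiviral enzyme viperin, lies beside Cmpk2, with probes 36.3 kb apart on chromosome 12 (mm9). It ran from 1.53 to 3.68 in controls (median 2.63) and from 1.62 to 3.92 in KO chimeras (median 2.60). The groups covered nearly the same range, with a difference of -0.01 ± 0.35 (adjusted p = 0.993). Its SD over mice, 0.78 in controls and 0.74 in KO chimeras, was the widest of the 40 genes among controls. The neighbouring promoters are printed because only Cmpk2 was lower. The response element was found in that of Rsad2, 120 bases before the start, and these letters are not in the Cmpk2 window:
Cmpk2 promoter (chr12:26469055-26469214, plus strand): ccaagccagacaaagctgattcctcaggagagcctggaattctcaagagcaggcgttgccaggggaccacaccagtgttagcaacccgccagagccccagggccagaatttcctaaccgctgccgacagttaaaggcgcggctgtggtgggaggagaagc
Rsad2 promoter (chr12:26456453-26456612, minus strand): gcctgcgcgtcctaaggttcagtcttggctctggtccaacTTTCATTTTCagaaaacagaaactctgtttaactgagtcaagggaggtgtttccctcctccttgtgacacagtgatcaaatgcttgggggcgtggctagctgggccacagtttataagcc

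Isg20, an exonuclease that degrades RNA, also varied widely between mice, partly in the same mice as Rsad2. It read 3.87 in KO chimera 1 and 3.97 in KO chimera 2, the lowest of the 8, and 6.18 and 5.88 in KO chimeras 7 and 8, the highest. Rsad2 read 1.62 and 2.19 in the first pair and 3.92 and 3.40 in the second. The 2 probes of Isg20 differed by -0.24 ± 0.33 and -0.16 ± 0.31 between groups. Eif2ak2, the kinase PKR that is activated by double-stranded RNA, differed by -0.33 ± 0.12 (adjusted p = 0.0636). The GTPase genes Mx1 and Mx2, both known to be inactive in C57BL/6J, differed by -0.24 ± 0.20 and 0.29 ± 0.15 and did not pass.

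All 4 sensors of nucleic acids fell on their brightest probes. Ddx58 encodes RIG-I, which binds short viral RNA with a 5' triphosphate. It ran from 1.87 to 2.44 in controls (median 2.13, log2 level) and from 1.30 to 1.85 in KO chimeras (median 1.72). Every KO chimera lay below every control, and the difference was -0.46 ± 0.10 (limma adjusted p = 0.00219). A second probe ran from -2.43 to -1.98 in controls and from -3.37 to -2.41 in KO chimeras and gave -0.59 ± 0.12 (adjusted p = 0.0018), with a slight overlap.

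Ifih1 encodes MDA5, which binds long double-stranded RNA. It ran from 0.58 to 0.99 in controls (median 0.81) and from -0.34 to 1.17 in KO chimeras (median 0.07). KO chimera 4, at 1.17, was above every control, and the other 7 were below every control. The difference was -0.59 ± 0.16 (limma adjusted p = 0.0128). Dhx58 encodes LGP2, which regulates both of these sensors. It ran from -0.23 to 0.41 in controls (median 0.27) and from -0.41 to 0.12 in KO chimeras (median -0.15), overlapping through controls 7 and 8. Its difference of -0.30 ± 0.11 was near the threshold (adjusted p = 0.0485), and it did not pass in 12 of the 16 fits that left out 1 mouse, those without control 7 or 8 or KO chimera 4 or 6 being the exceptions (adjusted p = 0.0588 to 0.0946 in those 12). It also missed the threshold with slide as a block (-0.26, adjusted p = 0.138), with normexp background correction (-0.23, 0.0961), with no filter on dim probes (0.101) and on each scan day alone (0.441 and 0.156).

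Zbp1 encodes a sensor of Z-form nucleic acids that triggers cell death. Its brightest probe ran from 0.62 to 1.23 in controls (median 0.83) and from -0.53 to 0.64 in KO chimeras (median 0.14). Only KO chimera 4 reached into the control range. The difference was -0.73 ± 0.15 (limma adjusted p = 0.00229). A dimmer probe 7.05 kb away ran from -2.16 to -1.12 in controls and from -2.20 to -0.75 in KO chimeras and differed by -0.09 ± 0.20 (adjusted p = 0.791). The mean of both probes gave -0.41 ± 0.17 (adjusted p = 0.0902), so the call for Zbp1 rests on 1 probe.

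**Figure D2:**
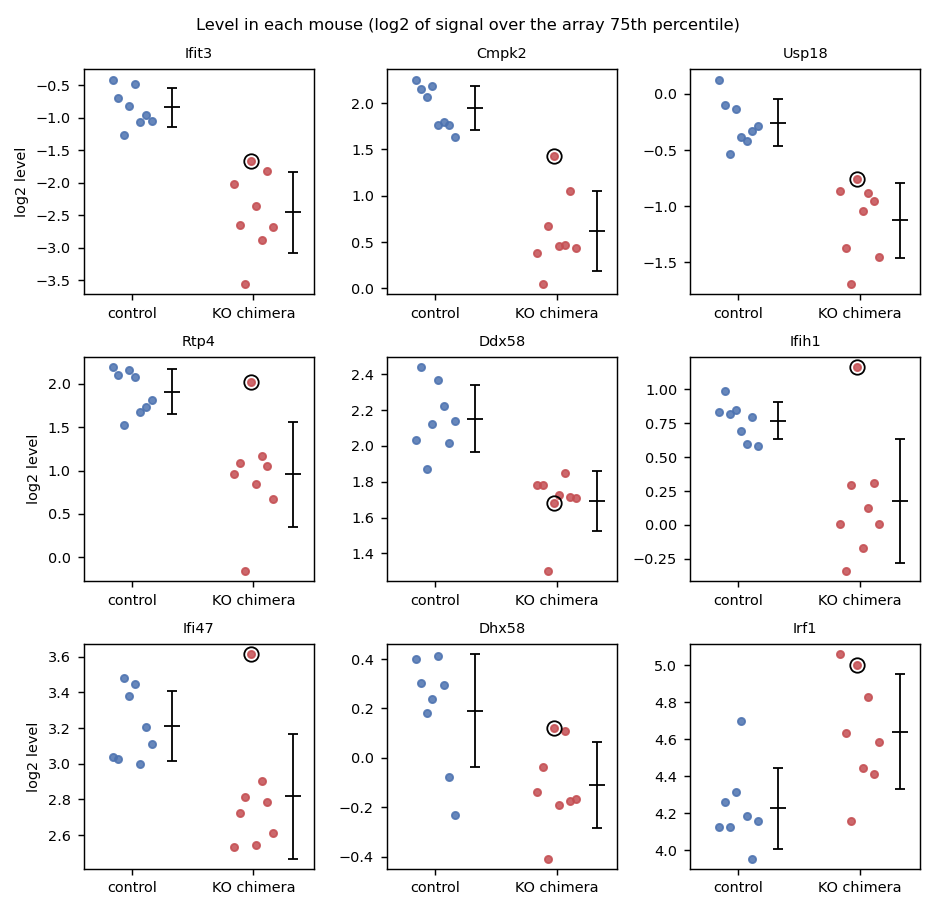
Log2 level in each mouse of the 8 genes that fell on every kept probe and of Irf1, brightest probe, with the mean and SD of each group (n = 8) to the right of its points; KO chimera 4 is ringed. In Ifit3, Cmpk2, Usp18 and Ddx58 the groups do not overlap, and in Rtp4, Ifih1 and Ifi47 the ringed mouse lies among or above the controls.

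The membrane proteins Ifitm1, Ifitm2 and Ifitm3, which hinder the entry of enveloped viruses, did not pass. Ifitm2 and Ifitm3 differed by -0.15 ± 0.14 and -0.32 ± 0.15. Ifitm1 differed by -0.36 ± 0.23 and -0.39 ± 0.23 on probes that share a run of 54 of their 60 bases and are thus nearly the same measurement. KO chimera 6, at 4.63, was above every control for Ifitm1 and the other 7 ran down to 2.57. Without that mouse the difference was -0.57 (limma adjusted p = 0.00913).

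The guanylate binding proteins, GTPases that attack vacuoles of pathogens and are induced mainly by interferon gamma, did not pass either. Gbp2 differed by 0.00 ± 0.22 and Gbp3 by 0.07 ± 0.17. Gbp6 read 0.31 ± 0.26 on its brightest probe and -0.38 ± 0.19 on the other. These genes belong to a family of similar copies, so a probe may read a relative. The immunoproteasome subunits Psmb8 and Psmb9, which shape peptides for antigen presentation, differed by -0.13 ± 0.12 and -0.20 ± 0.13 and did not pass.

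Of the 5 immunity-related GTPases, which act on the membranes of intracellular pathogens, 2 fell and 3 did not pass. Irgm1, the regulatory member that protects host membranes, ran from 1.37 to 1.85 in controls (median 1.61, log2 level) and from 0.76 to 1.70 in KO chimeras (median 0.99). KO chimera 4 held the 1.70 and lay within the control range, and the other 7 were below every control. The difference was -0.56 ± 0.11 (limma adjusted p = 0.00185). A dimmer probe 0.563 kb away ran from -1.29 to -0.52 in controls and from -1.31 to -0.42 in KO chimeras and gave -0.31 ± 0.13 (adjusted p = 0.0998).

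Ifi47, another of these GTPases, ran from 3.00 to 3.48 in controls (median 3.16) and from 2.53 to 3.61 in KO chimeras (median 2.75). Again KO chimera 4 was above every control and the other 7 were below all of them. The difference was -0.40 ± 0.14 (limma adjusted p = 0.0479). It did not pass in 14 of the 16 fits without 1 mouse, those without control 6 or KO chimera 4 being the exceptions (adjusted p = 0.0517 to 0.091 in the 14), nor on scan day 1 alone (0.328).

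Irgm2 and Igtp lie 15.2 kb apart on the same chromosome 11 (mm9), away from Irgm1. They differed by 0.14 ± 0.21 and 0.41 ± 0.18 and did not pass. Igtp passed as higher without KO chimera 2 (difference 0.53, limma adjusted p = 0.025). Iigp1 differed by -0.08 ± 0.09. The promoter of Irgm1 is printed as that of a fallen GTPase, with the response element at 30 and 24 bases before the start; Igtp and Irgm2, which did not pass, held the element too:
Irgm1 promoter (chr11:48871421-48871580, minus strand): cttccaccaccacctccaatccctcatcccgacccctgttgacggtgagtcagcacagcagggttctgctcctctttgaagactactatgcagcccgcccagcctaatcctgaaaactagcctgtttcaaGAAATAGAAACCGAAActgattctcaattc

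Xaf1, a proapoptotic partner of the inhibitor XIAP, gave opposite readings on its probes. The brightest probe ran from 0.13 to 1.01 in controls (median 0.50, log2 level) and from -1.81 to -0.21 in KO chimeras (median -0.79). The other, 5.01 kb away on chromosome 11, ran from -4.51 to -2.85 in controls (median -4.01) and from -0.50 to 0.44 in KO chimeras (median -0.05). On neither did the groups overlap. The differences were -1.40 ± 0.19 and 3.83 ± 0.20, that is 2.64-fold lower and 14.2-fold higher (limma adjusted p = 3.5e-05 and 5.4e-10). The dimmer probe was above background in 7 of 8 controls, so its fold is approximate, and with normexp background correction and quantile normalization its difference was 2.14. The mean of the probes gave 1.21, so Xaf1 has no settled direction, although its brightest probe counts it as lower above.

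Parp9 showed the same kind of split on a smaller scale. Parp9 encodes an ADP-ribosyltransferase family protein that works with the ubiquitin ligase Dtx3l. Its brightest probe ran from 0.88 to 1.39 in controls (median 1.24) and from 0.22 to 0.80 in KO chimeras (median 0.58) without overlap. A dimmer one 4.33 kb away ran from -3.11 to -2.41 in controls (median -2.84) and from -2.60 to -2.26 in KO chimeras (median -2.36) with some overlap. The differences were -0.64 ± 0.10 and 0.44 ± 0.11 (limma adjusted p = 1.19e-04 and 0.00533), and the mean of both probes, -0.10 ± 0.08, did not pass. Dtx3l read -0.19 ± 0.12, 0.01 ± 0.17 and 0.25 ± 0.17 on its 3 probes, and Parp14, a further ADP-ribosyltransferase of this cluster on chromosome 16, -0.37 ± 0.15 (adjusted p = 0.0783). None of these 4 probes passed.

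The probes of the genes above that read differently are shown by their last 30 of 60 bases, with any AATAAA, the letters of the common polyadenylation signal, in capitals. Of the 52 kept member probes 12 held these letters: 2 of the 3 that read higher in KO chimeras, 5 of the 15 lower and 5 of the 34 that did not pass. The share over all probes was not taken, so these counts cannot be weighed, and a part of polyadenylation was not tested. The 8 shown are those of the 4 genes in the plot of both probes:
Xaf1 probe, brightest, lower: aatcgaagatccacagtgagtaaagatgtt
Xaf1 probe, other, higher: ggctccaaAATAAActtatctctgcatcct
Parp9 probe, brightest, lower: ctaggacaacaggatgatttcaggttttct
Parp9 probe, other, higher: ggcatgctgtgtgtatgctgtctaAATAAA
Zbp1 probe, brightest, lower: ttgcttctgcctattaaattctgggattaa
Zbp1 probe, other, not passed: caaccaggggatgaggatggtgcatgggga
Cmpk2 probe, brightest, lower: attctatccttgggttcagaatctggggtc
Cmpk2 probe, other, lower: ttagagctgatccagagttctggtcgttaa

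These 8 probes lie, in the order printed and on mm9, at chr11:72122169-72122228, chr11:72127175-72127234, chr16:35972577-35972636, chr16:35968243-35968302, chr2:173039307-173039366, chr2:173032258-173032317, chr12:27164119-27164178 and chr12:27162935-27162994. Whether they lie in coding sequence, an untranslated region or an intron of that build was not analysed here. Over the 11 members with several kept probes, all probes passed lower in 2 (Cmpk2 and Ddx58), probes passed in both directions in 2 (Xaf1 and Parp9), some passed and another did not in 3 (Isg15, Irgm1 and Zbp1), and none passed in 4 (Isg20, Ifitm1, Gbp6 and Dtx3l). Counting a gene as fallen only where every kept probe passed lower left 8 of the 13: Ifit3, Usp18, Cmpk2, Ddx58, Ifih1, Dhx58, Ifi47 and Rtp4.

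**Figure D3:**
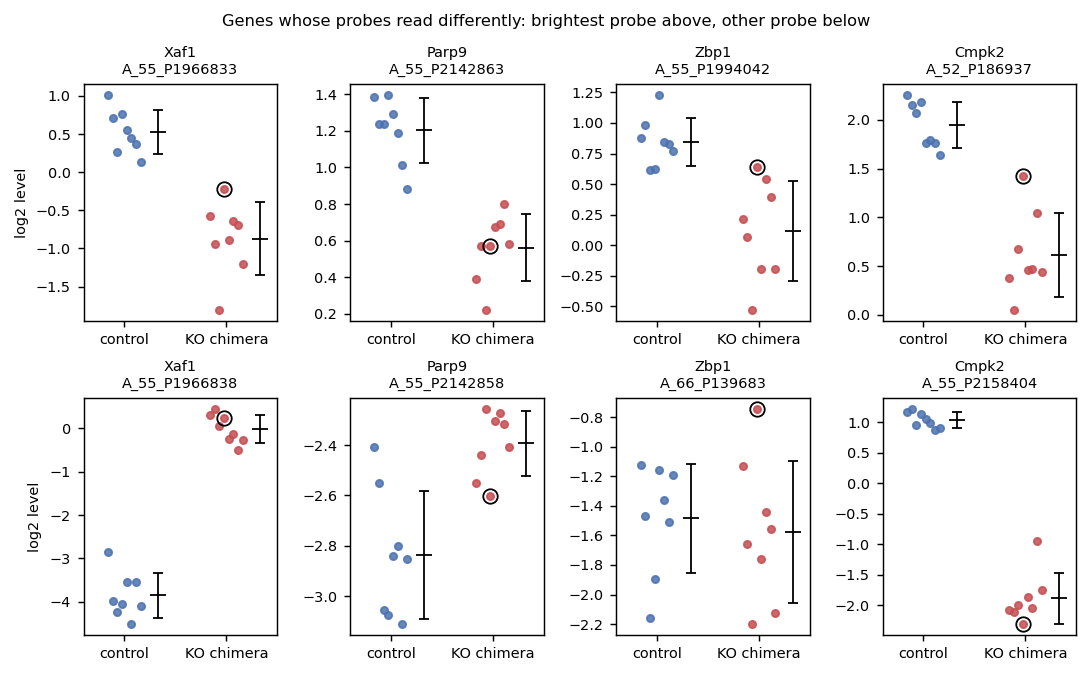
Log2 level in each mouse on the brightest (upper row) and the other kept probe (lower row) of Xaf1, Parp9, Zbp1 and Cmpk2, with the mean and SD of each group (n = 8); KO chimera 4 is ringed and each panel has its own scale. The lower row shows Xaf1 and Parp9 higher in KO chimeras, Zbp1 overlapping and Cmpk2 lower by 2.92.

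Of the remaining genes Rtp4, which encodes a chaperone of receptor trafficking with antiviral activity, fell. It ran from 1.52 to 2.20 in controls (median 1.95, log2 level) and from -0.16 to 2.03 in KO chimeras (median 1.00). KO chimera 4 held the highest value and lay among the controls, and the other 7 were below every control. The difference was -0.96 ± 0.22, 1.94-fold (limma adjusted p = 0.00398). Ifi35 and Ifi27 differed by 0.12 ± 0.09 and 0.03 ± 0.11. Ifi44 was well above background on 6 control arrays and 3 KO chimera arrays, so its difference of -0.52 ± 0.33 is approximate.

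The KO chimeras were not alike. For each mouse the deviation of each gene from the control mean was taken, and the median over the 40 genes ran from -0.16 to 0.10 in controls. In KO chimera 4 it was 0.22, and in the other 7 it ran from -0.54 in KO chimera 3 to -0.25 in KO chimera 6. Over all genes the same median ran from -0.07 to 0.02 in KO chimeras, and that of KO chimera 4 was -0.02. KO chimera 4 had the highest value of the 8 for 24 of the 40 genes, 10 of the 13 fallen ones among them, and was above every control for 17, where the others were for 2 to 8. KO chimera 3 had the lowest value for 17 genes, of which 10 were among the 13. These counts were not taken over all genes. How often each mouse is highest, lowest or above every control across the array is thus not known here.

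KO chimera 4 was not high for every gene. It was 1.16 above the control mean for Gbp2, 0.99 for Gbp3 and 1.17 for Igtp, yet 0.83 below it for Ifit3, 0.75 below for Xaf1 on the brightest probe and 0.52 below for Cmpk2. Ifit3, Cmpk2, Xaf1, Usp18, Parp9 and Ddx58 were thus lower than in every control in this mouse too. KO chimera 4 was singled out for its high values in these same 40 genes, so leaving it out is bound to lower most of their differences. Fits that left out 1 mouse gave 11 to 16 genes lower, and that without KO chimera 4 gave the most. Without KO chimera 4, 16 of the 40 genes were lower, against 12.2% of all genes. They were the same 13 and also Irf9 (-0.30, limma adjusted p = 0.00478), Eif2ak2 (-0.44, 0.00114) and Parp14 (-0.50, 0.00178), while Irf1 no longer passed (0.36, adjusted p = 0.0556).

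**Figure D4:**
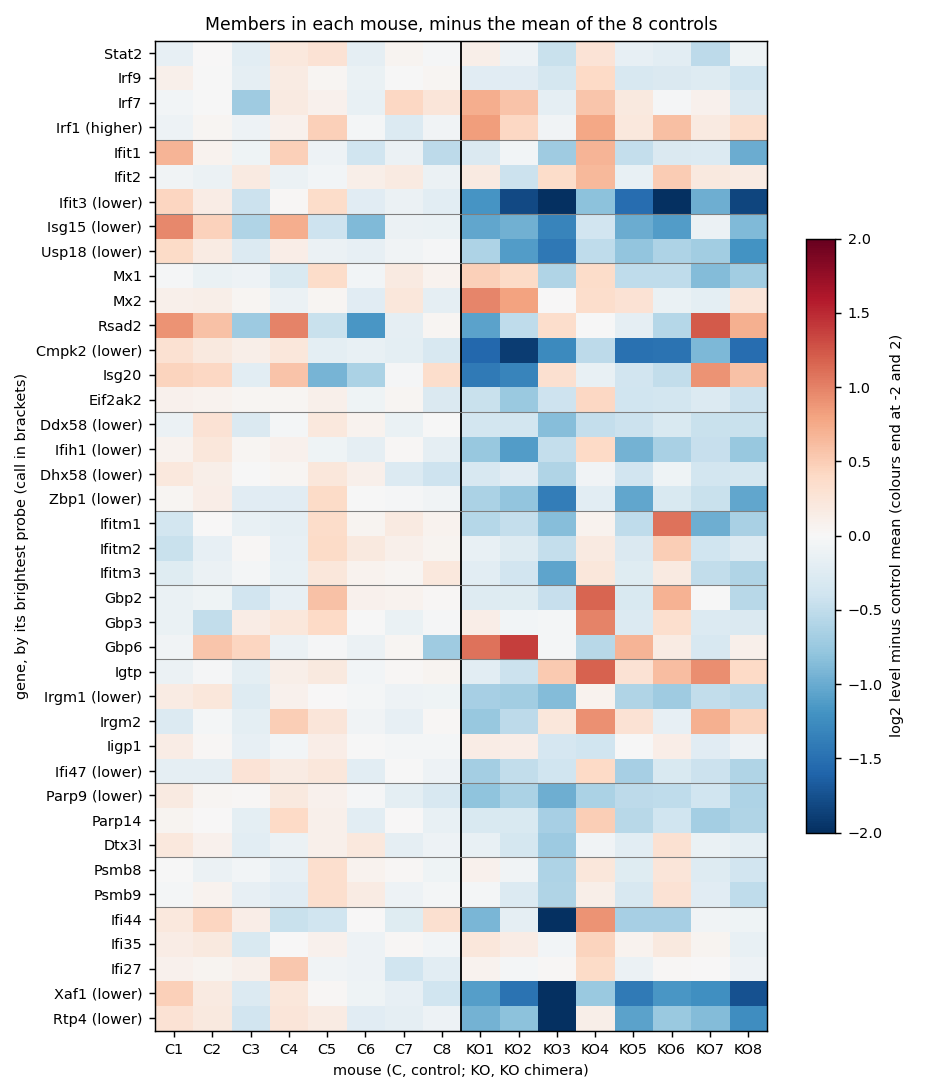
Log2 level of each of the 40 genes (rows, brightest probe, grouped by role) in each of the 16 mice, minus the mean of the 8 controls; red is above and blue below, and colours end at -2 and 2. The column of KO chimera 4 is above the control mean for 26 genes, the other KO chimeras for 7 to 15, and the rows of Ifit3, Cmpk2 and Xaf1 are below it in every KO chimera.

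Scanning took 2 days, and each day held 4 controls and 4 KO chimeras, with KO chimera 4 in the batch numbered 1. The difference had the same sign on both days for 37 of the 40 genes and for 76.1% of all genes, passed or not. All 14 that passed were among the 37. They were called on the mice of both days together, so their equal signs are not a separate check. Day by day the differences were -1.81 and -1.42 for Ifit3, -1.29 and -1.38 for Cmpk2 on its brightest probe, -0.83 and -0.91 for Usp18 and 0.38 and 0.44 for Irf1. On day 1 alone 4 of the 40 genes were lower (Ifit3, Cmpk2, Parp9 and Xaf1), against 3.96% of all genes. On day 2 alone 13 were, against 4.83%, and 11 of them were among the 13 of both days together (limma, n = 4 mice per group).

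Levels of other cell types were read from 11 marker lists, and their counts stand against 12.1% of all genes lower and 10.3% higher. Of 10 measured macrophage markers 6 were lower and 0 higher in KO chimeras (median difference -0.67). Their summed level, in units of the array's 75th percentile, ran from 11.5 to 19 in controls and from 7.44 to 12.7 in KO chimeras, and was 11.3 in KO chimera 4. Most of this sum came from the brightest markers, Vcam1 (-0.58 ± 0.16, lower) and Emr1 (-0.07 ± 0.12, not passed). All 10 but Siglec1 were well above background on every array. Of 8 markers of plasmacytoid dendritic cells, the main producers of type I interferon, 2 were lower and 0 higher, with summed levels of 226.7 to 282.2 and 205.9 to 356.7. KO chimera 4 had the lowest sum of the 16. Most of this sum came from Siglech (0.10 ± 0.11, not passed), and the 2 lower markers, Ccr9 and Tcf4, were dimmer. Of 5 megakaryocyte markers 3 were lower (median -0.85), with summed levels of 36.2 to 65.7 in controls and 20.4 to 46.2 in KO chimeras, KO chimera 4 being the lowest. Of 5 monocyte markers 2 were higher (median 0.22), with sums of 200.4 to 322.2 and 217.4 to 374.7. Most of these monocyte sums came from Ly6c1 (0.10 ± 0.12, not passed). T cell markers gave 2 lower and 1 higher of 6, NK cell markers 1 and 1 of 6, endothelial markers 1 and 1 of 4 and conventional dendritic cell markers 1 and 0 of 4. The lower NK cell marker, Klrk1, was above background in 8 controls and 2 KO chimeras, so only the controls met the filter. Endothelial sums ran from 17.8 to 27.3 in controls and from 24.9 to 37.0 in KO chimeras. The higher sums rest mainly on Stab2, which rose by 4.99 ± 0.22. Cdh5 differed by -0.91 ± 0.21 and passed as lower. It was above background in 8 controls and 5 KO chimeras, so here too only the controls met the filter. Kdr (0.07 ± 0.12) and Pecam1 (0.14 ± 0.10) did not pass. None of 8 neutrophil, 5 B cell and 6 erythroid markers passed. The part of these cells in the fall of the 13 genes was not tested.

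Other genes of the pathway were listed by function. Of 90 such genes 82 were on the array and 77 were measured, and 21 of these were lower and 8 higher, where 12.1% and 10.3% of all genes were. None of the 6 receptor genes passed on its brightest probe, though a dimmer probe of Ifnar1 rose by 0.54 ± 0.12 (limma adjusted p = 0.00417). Of 7 measured interferon genes Ifna5 was higher (0.36 ± 0.13, adjusted p = 0.045), and Ifnb1, above background in 0 controls and 5 KO chimeras, was not tested. Of the receptor kinases and STATs, Jak2, which serves the interferon gamma receptor, was lower by 0.49 ± 0.09 and did not overlap, and Tyk2, which serves Ifnar1, rose by 0.53 ± 0.15. Jak1 and Stat3 did not pass.

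Among the factors that lead from nucleic acids to interferon, Tbk1 rose by 0.38 ± 0.12, and the adaptors Mavs and Ticam1 fell by 0.43 ± 0.12 and 0.40 ± 0.09 on the log2 scale. The editing enzyme Adar, listed in the same class but not a step towards interferon, fell by 0.32 ± 0.11. Mavs is the adaptor through which Ddx58 and Ifih1 signal. Tlr7, a receptor for single-stranded RNA, rose by 0.29 ± 0.08 on its brightest probe and read -0.06 ± 0.11 on another, which did not pass. Among the brakes Socs3 rose by 0.76 ± 0.18. Trim25, here listed with the brakes although it also activates RIG-I, rose by 0.50 ± 0.09, and Pias1 differed by -0.55 ± 0.10 on 1 of 3 probes.

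The largest class held induced genes outside the 40. Of 34 measured, 16 were lower and 2 higher (median -0.32), where 12.1% and 10.3% of all genes were. The oligoadenylate synthetase genes Oas3 and Oas2 differed by -1.41 ± 0.20 and -1.06 ± 0.24 (limma adjusted p = 7.43e-05 and 0.00402). Lgals3bp, a secreted glycoprotein, fell without overlap on both of its probes, by 1.23 ± 0.19 and 1.04 ± 0.12. Cxcl10, a chemokine induced by interferon gamma and NF-kB, rose by 0.85 ± 0.23, and Gbp5 by 0.36 ± 0.13 (adjusted p = 0.0113 and 0.0489). Dimmer probes of Cxcl10 and Gbp5 read 0.39 ± 0.18 and 0.23 ± 0.09 and did not pass (limma adjusted p = 0.132 and 0.0651).

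Probes disagreed here as well. Herc6, the mouse ligase for Isg15, read 0.28 ± 0.11 on its brightest probe and -1.01 ± 0.09 on another (limma adjusted p = 0.086 and 4.06e-07). Nlrc5, an activator of MHC class I genes, read -0.57 ± 0.14 and 0.42 ± 0.13, both passing. Ifi203 read -0.90 ± 0.12 on its brightest probe and 1.09 ± 0.18 on a dimmer one, in a family of similar genes. Its remaining probes read 0.08 ± 0.13, which did not pass, and -1.41 ± 0.25, which passed but was above background in 0 KO chimeras.

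**Figure D5:**
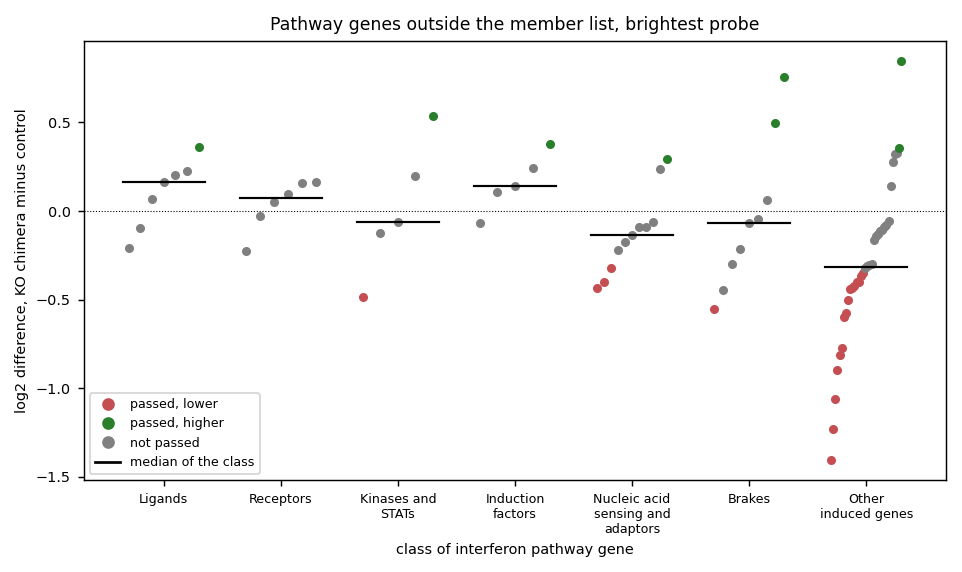
Log2 difference, KO chimera minus control, of the 77 measured pathway genes outside the 40, brightest probe, by class; each point is a gene, coloured by its call, and the bar is the median of the class. The 34 other induced genes have a median of -0.32 with 16 lower, and the 6 receptor genes lie between -0.5 and 0.5 with none passing.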

How the data were processed

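RNA of 16 mouse marrows carried a Cy3 label on 1-colour Agilent arrays, per the labels' protocols. The submitters' processing notes name Agilent Feature Extraction 10.7, and the file headers 10.1.1.1. Spot intensity in the deposited scanner files is linear and background-subtracted, per the file headers. A deposited table holds the authors' log2 values, correlated with the scanner values of the same array at r = 0.991 or more; its descriptions name quantile normalization, its centring is unknown, and it served as an alternative.

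Processed signal was divided by the array's 75th percentile and taken to log2. Outlier spots were removed, replicate spots of a probe averaged, and 0 spots were saturated. The test was limma 3.58.1 in R 4.3.3 (linear fit with empirical Bayes, two-sided) per probe, for probes above background in 6 or more of 8 mice of a group. Differences carry the SE of the fit, and the number of mice limits their precision. Members and lists were chosen with earlier results of these data known; all members are accounted for, and those that passed are given in full. Replicate numbers did not pair the mice: deviations of same-numbered mice correlated at -0.18 to 0.19. Alternatives were other normalizations, filters, blocks, weights, thresholds and ways of reading several probes, and leaving out each mouse. Names are those of the array design, positions those of the files (mm9), and promoters RefSeq's (GRCm38.p6). Some genes of the lists are not reported here by name.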

Additional observations from a re-analysis of the deposited data

Results flagged for a closer look

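For the brightest probe of each gene and every other member probe that passed, the highest and the lowest mouse of each group of 8 was set against the others. In 10 of the 88 groups the gap to the next mouse, as a share of the group's range, exceeded Dixon's critical value. Chance does so in about 1 of 20 groups. The 88 groups are the same mice read on different probes and are not independent, so 10 of 88 cannot be weighed against that rate.

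KO chimera 4 gave 7 of the 10, each as the highest of its group. Its log2 level was 3.38 for Irf9 (next 2.75), 0.36 for Eif2ak2 (next -0.31), 1.17 for Ifih1 (next 0.31) and 1.70 for Irgm1 (next 1.13). It was 3.61 for Ifi47 (next 2.90), 2.47 for Parp14 (next 1.67) and 5.23 for Ifi27 (next 4.92).

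KO chimera 7 was the highest on the dimmer Cmpk2 probe at -0.95 (next -1.76), still below every control. KO chimera 3 was the lowest for Ddx58 at 1.30 (next 1.68). Control 8 was the lowest control for Eif2ak2 at -0.34 (next -0.13), and without it Eif2ak2 passed as lower (-0.37, limma adjusted p = 0.0416).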

How the results depend on the processing

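The 13 genes lower became 11 to 16 when each mouse was left out in turn, the 1 higher 0 to 2, the median difference -0.31 to -0.20, probes lower 13 to 20 and higher 2 to 4, and pathway genes lower 17 to 24 and higher 6 to 8. The same 13 were lower with quantile normalization and with the authors' values. Irf1 was lost, leaving 0 genes higher, with no filter on dim probes, with slide as a block (all slides or the 5 with both groups), with array brightness as a covariate, on either scan day alone and at a threshold of 0.01; array weights or the mean of a gene's probes gave 2. Scan day 1 alone gave 4 genes and 5 probes lower and 3 pathway genes lower and 0 higher; day 2 gave 1 probe higher and 8 pathway genes lower and 1 higher. Requiring every kept probe to pass, chosen after seeing the data, gave 8 genes lower. At 0.01, 12 pathway genes were lower and 2 higher, and with slide as a block 5 were higher.

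With the replicate number as a block, although the numbers did not pair the mice, 13 genes were lower (12 of the 13, with Parp14 in place of Dhx58) and 5 pathway genes higher. With the mean of a gene's probes Xaf1 reversed, from -1.40 to 1.21, because its probes differ in direction, and Parp9 (-0.10) and Zbp1 (-0.41) did not pass. No other result reversed under the alternatives run. Probes not well above background, such as that of Ifi44, limit what can be read.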
